A study of Mus musculus with 12 samples.

Results

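The genes of oxidative phosphorylation were followed through T cells isolated from brains of female mice aged 9 months, with the mitochondrially encoded genes and the nuclear genes kept apart. Members were the genes whose symbols begin with mt-, Ndufa, Ndufb, Ndufc, Ndufs, Ndufv, Sdha, Sdhb, Sdhc, Sdhd, Uqcr, Cox4, Cox5, Cox6, Cox7, Cox8 or Atp5 and that had at least 50 unique molecular identifiers (UMIs, each a counted RNA molecule) in all cells together. This gave 105 of the 32285 genes in the count matrix, of which 13 are encoded by mitochondrial DNA and 92 by the nuclear genome. The nuclear members comprised 36 genes of complex I, 8 of its assembly factors, 4 of complex II, 4 of its assembly factors, 8 of complex III, 15 of complex IV and 17 of complex V. Just inside the minimum stood Cox7a1 with 84 UMIs and Cox6b2 with 139, and just outside it Cox8b with 24, Ndufa4l2 with 19 and Cox4i2 with 17. Ndufb1-ps, which carries a pseudogene name, was left out with 22089 UMIs.

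The cells came from 6 pools of sorted CD4+, CD8+ and γδ+ T cells, each pool joining half-brains of several mice of 1 genotype. The 4 genotypes were littermates of a cross between hemizygous PS19 mice (B6C3F1/J), which express mutant human tau (MAPT) from the mouse prion protein promoter, and hemizygous 5XFAD mice (C57BL6 congenic), a line that accumulates amyloid. WT mice carried neither transgene and gave the pools WT-1 (10 mice) and WT-2 (8 mice). Mice with 5XFAD alone gave 5XFAD-1 (4 mice) and 5XFAD-2 (3 mice), mice with PS19 alone gave the pool PS19 (4 mice), and bigenic mice gave PS-5X (4 mice). All brains were perfused and digested with collagenase IV and DNase at 37 °C, so every group shares that handling, and a pool, not a mouse, is the unit of replication. A separate sequencing run held WT-2 and 5XFAD-2.

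After filtering, 17376 cells remained, between 829 in WT-1 and 5896 in PS-5X, with total counts of 5883210 to 38616794 UMIs per pool and median depths of 5399 to 6817 UMIs per cell. Clusters were named from marker genes as CD8 (11192 cells), CD4 (3379) and γδ (842) T cells, and between 8.9% and 20.27% of the cells of a pool stayed unnamed. Cd8b1 was detected in 79.9% to 97.4% of the cells of the CD8 clusters and in 3.6% of the γδ cluster. A clone was the set of cells of a pool with the same deposited clonotype, and a clone of 2 or more cells is called expanded. In WT-1, 165 of 652 cells with a receptor (25.3%) had a receptor identical to one of another pool, as did 25.6% in 5XFAD-1, 8.1% in PS19 and 3.5% in PS-5X, and none did in WT-2 and 5XFAD-2, the separate run. Whether cells or reads were shared between libraries was not tested. The number of cell barcodes that 2 pools shared ranged from 1 to 23.

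Oxidative phosphorylation makes ATP in the inner mitochondrial membrane. Complex I takes electrons from NADH and complex II from succinate, complex III passes them to cytochrome c, complex IV passes them to oxygen, and complex V uses the proton gradient that results to make ATP. Mitochondrial DNA encodes the core membrane subunits of complexes I, III, IV and V, transcribed as long polycistronic RNAs, whereas every subunit of complex II and most subunits of the others are nuclear. Naive T cells rest largely on oxidative metabolism, and activated effector T cells add aerobic glycolysis.

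Promoters of nuclear members that differed between the cell groups below are shown with the letters of motifs tied to respiratory genes. The windows run from 250 bases before to 50 bases after the annotated start, come from RefSeq on GRCm38.p6, and are written 5′ to 3′ on the gene's strand, which is the minus strand for all 6. Capitals mark exact matches, on either strand, to CGCATGCG (bound by NRF1), CCGGAAGT (bound by GABP) and ATGGCGGC (bound by YY1). Uqcrh (complex III, chr4:116075021-116075320) and Atp5g2 (complex V, chr15:102670998-102671297) were lower in γδ than in CD8 T cells and lower in expanded than in singleton CD8 T cells. Uqcr11 (complex III, chr10:80406772-80407071) and Cox6a1 (complex IV, chr5:115348909-115349208) were higher in γδ than in CD8 T cells. Cox8a (complex IV, chr19:7217567-7217866) was higher in CD8 than in CD4 T cells, and Atp5j (complex V, chr16:84834927-84835226) was higher in expanded than in singleton CD8 T cells.
Uqcrh: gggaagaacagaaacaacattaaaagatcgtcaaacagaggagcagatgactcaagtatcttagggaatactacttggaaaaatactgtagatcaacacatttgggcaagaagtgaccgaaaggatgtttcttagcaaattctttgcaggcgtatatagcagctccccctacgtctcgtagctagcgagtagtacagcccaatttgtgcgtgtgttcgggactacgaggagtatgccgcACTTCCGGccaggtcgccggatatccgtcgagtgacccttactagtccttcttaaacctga
Atp5g2: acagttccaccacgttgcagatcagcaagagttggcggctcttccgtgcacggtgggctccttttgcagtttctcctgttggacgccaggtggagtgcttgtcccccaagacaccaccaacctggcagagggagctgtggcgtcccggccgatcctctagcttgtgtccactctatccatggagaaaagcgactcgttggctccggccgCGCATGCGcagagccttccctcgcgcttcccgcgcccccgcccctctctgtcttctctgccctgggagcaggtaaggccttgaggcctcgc
Uqcr11: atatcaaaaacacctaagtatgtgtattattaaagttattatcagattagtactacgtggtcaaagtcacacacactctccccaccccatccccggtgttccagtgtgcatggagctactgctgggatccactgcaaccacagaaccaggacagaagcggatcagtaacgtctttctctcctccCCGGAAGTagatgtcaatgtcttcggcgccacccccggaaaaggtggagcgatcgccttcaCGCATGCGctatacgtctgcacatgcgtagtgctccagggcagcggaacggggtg
Cox6a1: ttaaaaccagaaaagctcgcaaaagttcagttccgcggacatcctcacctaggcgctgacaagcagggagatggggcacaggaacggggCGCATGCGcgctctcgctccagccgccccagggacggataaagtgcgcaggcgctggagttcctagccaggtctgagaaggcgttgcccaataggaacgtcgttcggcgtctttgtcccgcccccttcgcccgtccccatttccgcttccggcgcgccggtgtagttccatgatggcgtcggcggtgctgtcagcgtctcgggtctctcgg
Cox8a: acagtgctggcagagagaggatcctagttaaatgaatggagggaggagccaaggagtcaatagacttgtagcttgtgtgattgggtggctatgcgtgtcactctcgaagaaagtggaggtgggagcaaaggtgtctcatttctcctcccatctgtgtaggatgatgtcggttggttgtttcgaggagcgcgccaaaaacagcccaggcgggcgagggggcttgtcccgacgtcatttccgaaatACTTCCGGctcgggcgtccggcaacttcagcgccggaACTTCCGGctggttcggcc
Atp5j: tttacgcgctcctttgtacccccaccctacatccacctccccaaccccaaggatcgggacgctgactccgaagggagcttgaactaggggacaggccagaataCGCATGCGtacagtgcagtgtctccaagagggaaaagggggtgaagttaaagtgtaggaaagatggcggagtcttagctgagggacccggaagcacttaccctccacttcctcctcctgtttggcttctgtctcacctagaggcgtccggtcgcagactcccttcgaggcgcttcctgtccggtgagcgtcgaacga
The GABP letters stand in Uqcrh, Uqcr11 and Cox8a, and the NRF1 letters in Atp5g2, Uqcr11, Cox6a1 and Atp5j. Of the 92 nuclear members, 77 matched a promoter of the table. The NRF1 letters were in 11 of these 77 (14.3%) against 2.07% of all 27025 genes with a promoter, the YY1 letters in 8 (10.4%) against 2.6%, and the GABP letters in 5 (6.49%) against 4.31%. Any of the 3 was in 23 of the 77 (29.9%) against 8.36% of all genes. Each of the 6 promoters shown has a match, so they do not stand for the members at large. By clone size in CD8 T cells, a match was in 2 of the 10 members with a promoter that were higher in expanded clones. It was in 4 of the 11 that were lower and in 17 of the 54 that passed in neither direction. A match is a description of the letters and not a measured binding site.

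All 13 mitochondrially encoded genes were lower in expanded than in singleton CD8 T cells, with log2 differences from -0.62 to -0.18 and a median of -0.44. Nuclear members had a median difference of -0.01, with 11 higher, 16 lower and 62 of 89 tested passing in neither direction. The UMIs of each class were added up within a pool, and edgeR's quasi-likelihood test was run with the pool as a block and Benjamini-Hochberg adjustment over 10894 genes, and a gene was called at an adjusted p of 0.05. By the same test 14.2% of all genes outside the T cell receptor loci were lower and 15.8% were higher, with a median difference of 0.00. Without the WT-1 cells whose receptors occurred in another pool, all 13 were again lower (median -0.46). With such cells left out in every pool, an alternative chosen after seeing the data, 12 of the 13 were lower, mt-Nd6 not being called (median -0.435), and 16 nuclear members were called, 8 of them lower. For 9 of the 13 the 6 expanded and 6 singleton sums did not overlap, which held for 1081 of 10795 genes.

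The complex I genes mt-Nd2 and mt-Nd1 showed the largest differences. mt-Nd2, a core membrane subunit of complex I, stood in expanded clones at 474, 416, 463, 378, 461 and 403 CPM (UMIs scaled to a fixed library total with TMM factors) in WT-1, WT-2, 5XFAD-1, 5XFAD-2, PS19 and PS-5X, the order used below. In singletons it stood at 689, 637, 637, 644, 751 and 618. Every singleton sum was above every expanded sum (log2 difference -0.62 ± 0.05 SE, edgeR adjusted p = 6.96e-08). mt-Nd1 was lower by a log2 difference of -0.59 ± 0.05 (edgeR adjusted p = 1.32e-07), again in 6 of 6 pools and without overlap. mt-Nd4l (-0.55), mt-Nd3 (-0.54), mt-Nd4 (-0.39) and mt-Nd5 (-0.36), all further complex I subunits, were lower in 6 of 6 pools. mt-Nd4l and mt-Nd4 overlap on the genome, so their reads may be split between them, as may those of mt-Atp8 and mt-Atp6.

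mt-Nd6, the 1 protein gene on the light strand, differed least. It stood at 84.7, 47.9, 54.0, 58.0, 53.8 and 55.7 CPM in expanded clones and at 79.6, 67.1, 64.0, 60.0, 57.7 and 61.6 CPM in singletons. The ranges overlapped, WT-1 went the other way, and the difference was -0.18 ± 0.07 (edgeR adjusted p = 0.0449). With totals left unscaled, an alternative chosen after seeing the data, mt-Nd6 was no longer called (log2 difference -0.03, adjusted p = 0.768), whereas the other 12 were.

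The cytochrome genes and the subunits of ATP synthase fell as well. mt-Cytb, the cytochrome b of complex III, stood at 1281, 1149, 1358, 1123, 1309 and 1111 CPM in expanded clones and at 1743, 1557, 1683, 1357, 1773 and 1517 CPM in singletons. The groups overlapped by 1 CPM, between the expanded cells of 5XFAD-1 and the singletons of 5XFAD-2, and each pool was lower in its expanded cells (-0.39 ± 0.04, edgeR adjusted p = 3.06e-06). mt-Co1, mt-Co2 and mt-Co3, the catalytic core of complex IV, were lower by -0.40, -0.43 and -0.44, and mt-Atp6, the proton channel subunit of complex V, by -0.46, each without overlap. mt-Atp8 was lower by -0.55 with overlapping groups. Its level across pools in all CD8 T cells ran from 20.6 to 91.4 CPM, the widest relative spread of the 13.

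**Figure D1:**
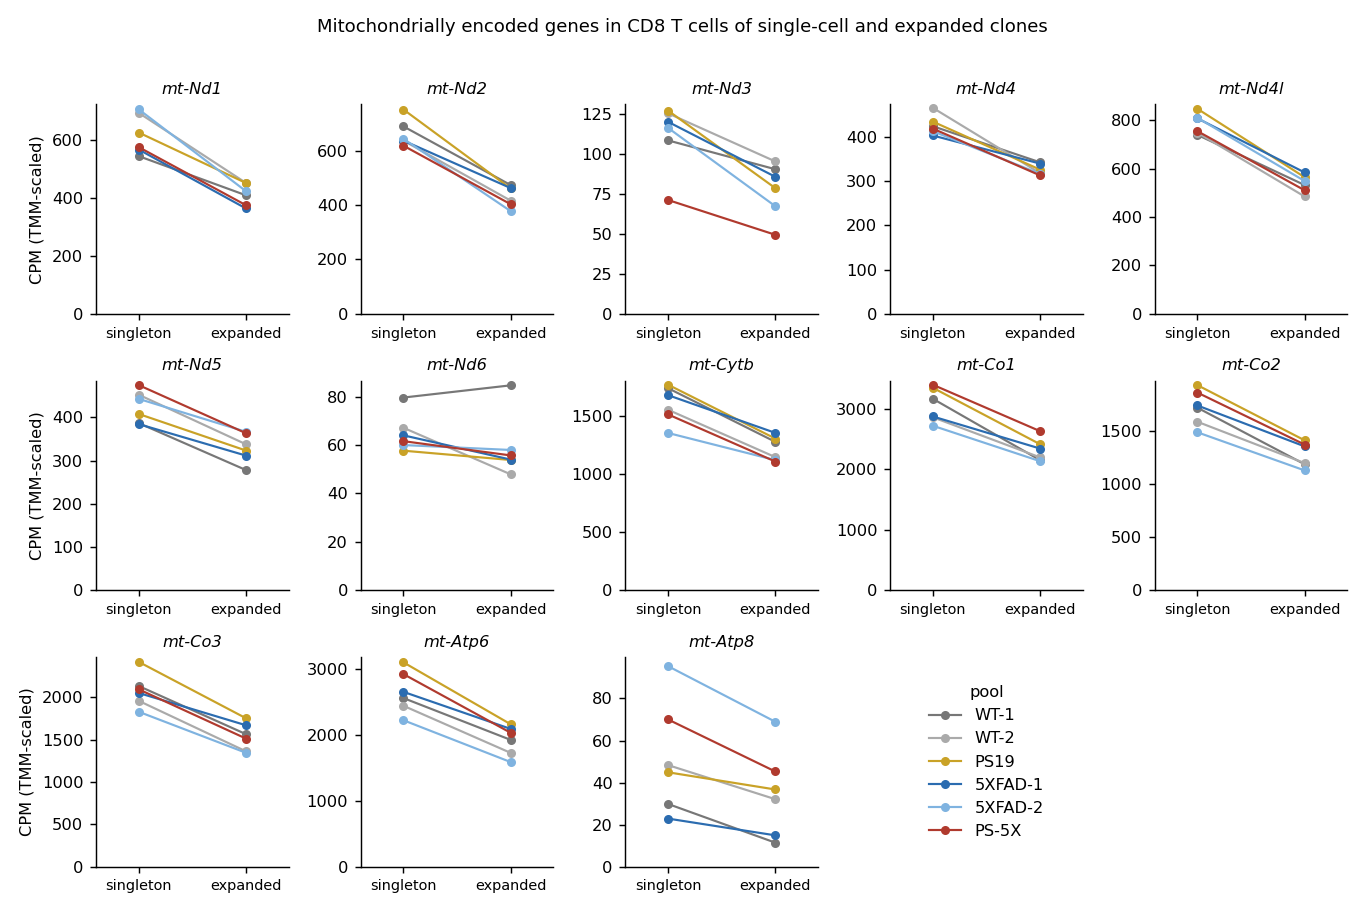
Level of each mitochondrially encoded gene in TMM-scaled CPM (y axes, from 0) in singleton and expanded CD8 T cells (x axes). Each line joins the 2 sums of 1 pool. In 12 of the 13 panels every line descends, and in the panel of mt-Nd6 the line of WT-1 rises from 79.6 to 84.7.

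Nuclear members were called in both directions, 11 higher and 16 lower of 89, near the 15.8% and 14.2% of all genes. Cox7a2l, counted here with complex IV, was the nuclear member that fell most, with 244, 264, 281, 270, 276 and 294 CPM in expanded clones and 308, 432, 336, 407, 433 and 411 CPM in singletons. The groups did not overlap (-0.52 ± 0.06, edgeR adjusted p = 4.47e-06). Complex V held 7 of the 16 that fell. They were Atp5mpl (-0.37), Atp5g2 (-0.28), which encodes the rotor ring subunit c, Atp5a1 (-0.13), Atp5b (-0.12), and Atp5l, Atp5o and Atp5e (-0.13 to -0.12). In complex III, Uqcrh (-0.31), the hinge subunit, Uqcrfs1 (-0.29), the Rieske iron-sulfur protein, and Uqcrq (-0.12) fell. In complex I, Ndufa6 (-0.26) and Ndufa10 (-0.24) fell.

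Other nuclear members rose in the same cells. Uqcrb, a small subunit of complex III, stood at 179, 203, 190, 213, 191 and 179 CPM in expanded clones and at 147, 176, 171, 157, 151 and 153 CPM in singletons. All expanded sums lay above all singleton sums (0.27 ± 0.05, edgeR adjusted p = 0.000427). Of the 8 complex I assembly factors 3 rose, Ndufaf2 (0.50, at a low mean level of 17.7 CPM), Ndufaf3 (0.35) and Ndufaf8 (0.19), and none was called lower. Complex I itself had 5 of 36 subunits higher, among them Ndufa5 (0.22), Ndufb8 (0.21) and Ndufa13 (0.19), and 4 lower, shares under those of all genes. None of the 4 complex II subunits was called, with differences between -0.11 (Sdhd) and 0.09 (Sdhb).

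The direction of the nuclear members rested on the scaling. With unscaled totals the median of all genes moved from 0.00 to 0.16 (log2), and 47 nuclear members were called with 5 of them lower, so the calls turned mostly to higher. Among those named, Atp5a1 and Atp5b changed sign (0.03 and 0.04), while the mitochondrially encoded members had a median of -0.29. Without the pool PS19 the nuclear calls under TMM were 17, 9 of them lower. The summed nuclear share rose from 1.66% of UMIs in singletons to 1.78% in expanded clones in 6 of 6 pools, but among UMIs outside the cytosolic ribosomal protein genes it was lower in 6 of 6 pools, at 2.54% and 2.44%. Ribosomal protein genes took 34.6% of the UMIs of singletons and 26.9% of those of expanded clones.

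A ratio of UMIs does not depend on scaling. Singletons had 1.14, 1.31, 1.30, 1.34, 1.10 and 1.22 nuclear UMIs for each mitochondrially encoded UMI, and expanded clones had 1.46, 1.77, 1.62, 1.74, 1.49 and 1.64. The ratio was higher in the expanded cells of 6 of 6 pools, and the 2 groups did not overlap. With clone size divided more finely, the mitochondrially encoded share of UMIs was 1.35% ± 0.09 (SD, n = 6) in clones of 1 cell, 1.17% ± 0.08 in clones of 2 to 4, 1.07% ± 0.12 in clones of 5 to 19 and 1.01% ± 0.05 in clones of 20 or more. The ratio went from 1.24 to 1.51, 1.70 and 1.78. The ranges over pools of neighbouring bins overlapped. In WT-1 the share went up at the last step, from 0.889% (17 cells) to 1.023% (20 cells). The bins held all CD8 T cells, naive ones included. Median UMIs per cell were lower in expanded than in singleton cells in 6 of 6 pools, and the part of depth in the ratio was not tested.

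**Figure D2:**
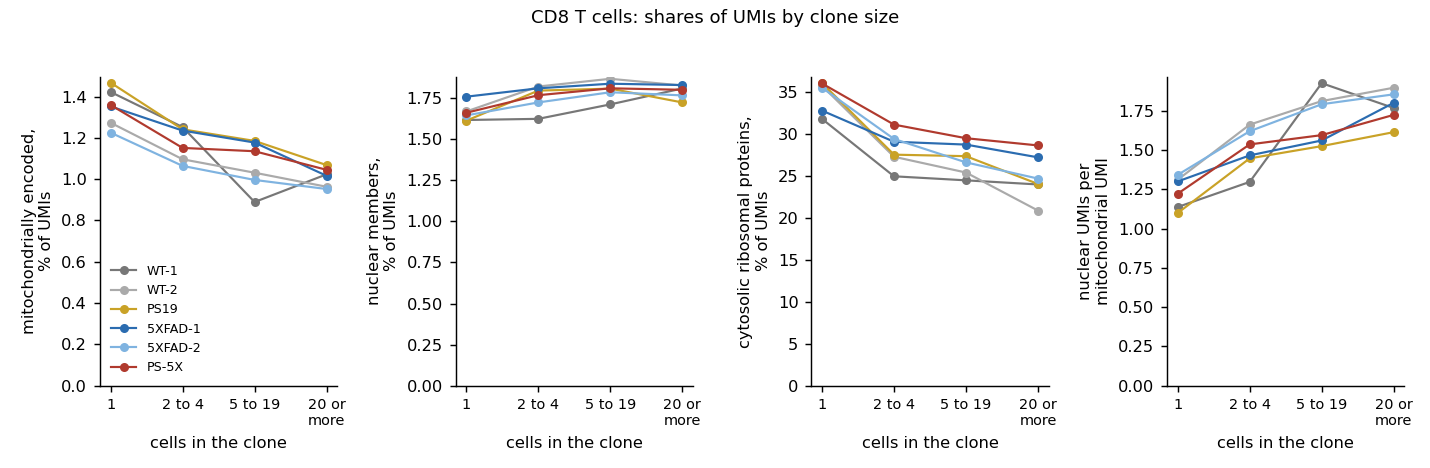
Percent of UMIs from mitochondrially encoded members, nuclear members and cytosolic ribosomal protein genes, and nuclear UMIs per mitochondrially encoded UMI (y axes, from 0), in CD8 T cells by the number of cells in the clone (x axes). Each line is 1 pool. The mitochondrially encoded share averages 1.35% in clones of 1 cell and 1.01% in clones of 20 or more.

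Singleton CD8 T cells held many naive cells and expanded clones few. The 2 clusters with naive markers such as Ccr7, detected in 95.8% and 88.8% of their cells, made up 29.2% to 58.7% of singletons and 0.6% to 3.4% of expanded cells. These naive clusters had a mitochondrially encoded share of 1.51% and 1.05 nuclear UMIs per mitochondrially encoded UMI. Outside them, 9 of the 13 mitochondrially encoded genes were still lower in expanded clones (3.00% of all genes were lower and 3.04% higher), with a median difference of -0.15 against -0.44 in all CD8 T cells. The difference between these medians was not tested.

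mt-Nd2 stood outside the naive clusters at 501, 429, 480, 382, 466 and 415 CPM in expanded clones and at 583, 507, 552, 482, 601 and 476 CPM in singletons. Each pool was lower in its expanded cells although the groups overlapped (-0.26 ± 0.04, edgeR adjusted p = 0.000131). mt-Nd3 differed most (-0.34 ± 0.06, edgeR adjusted p = 0.00100), followed by mt-Nd2, mt-Nd1 (-0.24) and mt-Nd4l (-0.23). The complex IV genes mt-Co1, mt-Co2 and mt-Co3 were lower by -0.11 to -0.15. mt-Nd4, mt-Nd5, mt-Nd6 and mt-Atp8 did not pass, and mt-Nd6 was higher in 3 of 6 pools. With the cells that share receptors with another pool left out, 6 of the 13 were lower, and mt-Co1, mt-Co2 and mt-Co3 no longer passed (edgeR adjusted p of 0.349, 0.0605 and 0.068).

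None of the 89 nuclear members was called outside the naive clusters by edgeR or by DESeq2, with 3 higher and 6 lower at an unadjusted p of 0.05 (8.41% and 8.21% of all genes), and 1 was called without 5XFAD-1. Their median difference was 0.00, and Cox7a2l had -0.13 ± 0.04 (edgeR adjusted p = 0.0761). The count depended on which clusters were taken as naive. When a cluster was naive by its leading genes, a choice made after seeing the data, 1 of the 2 naive clusters stayed among the cells compared and 20 nuclear members were called, 14 of them lower. That cluster made up 16.9% to 20.1% of singletons and 0.6% to 2.0% of expanded cells. The ratio of nuclear to mitochondrially encoded UMIs averaged 1.49 in singletons and 1.64 in expanded cells outside the naive clusters and was higher in the expanded cells of 6 of 6 pools.

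Expanded CD4 clones held few cells in all, 9 to 217 a pool. Of the mitochondrially encoded genes 7 of 13 were lower in them than in singletons, and all 13 differences were negative with a median of -0.35 (6.38% of all genes were lower and 6.28% higher). mt-Cytb stood at 917, 1236, 1329, 1298, 1418 and 1297 CPM in expanded clones and at 2091, 1695, 1990, 1582, 1999 and 1711 CPM in singletons. The groups did not overlap, and WT-1, with 9 expanded cells, had both the lowest and the highest value (-0.55 ± 0.10, edgeR adjusted p = 0.00121). Ndufaf3 was the 1 nuclear member that rose (0.65 ± 0.20, adjusted p = 0.0401, 5 of 6 pools) and Atp5a1 the 1 that fell (-0.32 ± 0.10, adjusted p = 0.0426). Leaving out the WT-1 cells with receptors of other pools, or taking clones of 5 or more cells as expanded, which left WT-1 without expanded CD4 cells and out of the fit, gave 1 mitochondrially encoded gene. With such cells left out in every pool none was called (all 13 differences negative, median -0.38, smallest adjusted p = 0.0528 for mt-Cytb). The 7 became 4 without WT-2, 4 without PS-5X, 11 without 5XFAD-2 and 1 with unscaled totals, which called 9 nuclear members, none lower. The summed B cell and plasma cell genes were at 0 to 151 CPM in expanded CD4 clones and at 175 to 263 CPM in singletons, and their part was not tested. Naive CD4 clusters had a mitochondrially encoded share of 1.445% of UMIs, against 1.277% in the other CD4 clusters (means over 6 pools). Clone size in CD4 T cells was not compared outside the naive clusters, and the part of naive cells was not tested.

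The test of the difference between the CD8 and CD4 clone effects called no member in edgeR or DESeq2 (0.538% of all genes were higher and 0.675% lower). At an unadjusted p of 0.05, 2 mitochondrially encoded members and 5 nuclear ones were lower and 1 nuclear member was higher (4.99% of all genes were lower and 6.42% higher). For mt-Nd2 the difference of effects was -0.29 ± 0.11 (edgeR adjusted p = 0.270).

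Lists of related genes were counted beside the members, against 14.2% of all genes lower and 15.8% higher in this comparison. Among genes that copy, transcribe or process mitochondrial DNA and RNA, 7 of 29 tested were lower in expanded CD8 clones and none was higher, with a list median of -0.17. They included Tfam (-0.36), which packages mitochondrial DNA and starts its transcription, Tfb2m (-0.42), a transcription factor of the same start complex, Polg2 (-0.29), a subunit of the DNA polymerase, and Rexo2 (-0.50), an exonuclease that clears short RNAs. Outside the naive clusters only Rexo2 of the 29 passed (-0.47 ± 0.05, edgeR adjusted p = 2.43e-05). Of 78 mitochondrial ribosomal protein genes 14 were lower and 2 higher (median -0.08), and of 93 cytosolic ones 84 were lower and 2 higher (median -0.48). Complex assembly factors outside the members had 10 of 37 lower and 4 higher, with Cox17, a copper chaperone of complex IV, at 0.31. In the tricarboxylic acid cycle 3 of 20 were lower, led by Idh2 (-0.94), which makes mitochondrial NADPH, and 1 was higher.

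Glycolysis genes had 8 of 19 higher and 2 lower in expanded CD8 clones (median 0.06), with Gapdh at 0.25. Genes known to respond to tissue dissociation and heat shock had 11 of 22 higher and 3 lower, led by Fosb (0.74) and Dusp1 (0.58). The summed level of 6 B cell and plasma cell genes was 50.8 to 69.2 CPM in expanded clones and 118 to 173 CPM in singletons, and the 10 microglia and macrophage genes lay at 27.0 to 55.1 and 39.8 to 49.3 CPM. The part of these lists in the differences of the members was not tested.

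Between γδ and CD8 T cells nuclear members were called in both directions, at shares near or under those of all genes. Of 89 nuclear members, 16 were higher and 24 lower in γδ than in CD8 T cells (25.8% of all genes were higher and 25.6% lower), with a median of -0.05 beside -0.03 for all genes. For 16 of the 89 the γδ and CD8 sums did not overlap, which held for 3038 of 10814 genes. The 6 γδ sums held only 36 to 277 cells each. Cells of naive clusters made up 16.6% to 45.8% of the CD8 sums. Their nuclear share of UMIs was 1.568% against 1.77% in the other CD8 clusters, and their mitochondrially encoded share 1.508% against 1.155%. The part of naive cells in the differences between γδ and CD8 T cells was not tested. With unscaled totals the median of all genes moved to 0.15 and 42 nuclear members were called, 8 of them lower.

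Atp5md, a small accessory subunit of complex V, rose most in the γδ cells. It stood at 477, 582, 629, 532, 472 and 509 CPM in γδ and at 258, 308, 306, 275, 256 and 260.0 CPM in CD8 T cells. No γδ sum came near a CD8 sum (0.95 ± 0.05, edgeR adjusted p = 2.49e-13). Ndufs5, an accessory subunit of complex I, followed with 141, 149, 166, 157, 164 and 153 CPM against 80.9, 98.2, 106, 99.8, 95.3 and 102. All γδ values were again above all CD8 values (0.66 ± 0.05, edgeR adjusted p = 1.33e-09). Ndufa4 (0.46) and Cox6a1 (0.41), both of complex IV, Ndufv3 (0.44) of complex I and Uqcr11 (0.36) of complex III rose in 6 of 6 pools without overlap.

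Cox7a2l, Ndufa6, Uqcrh and Atp5g2 fell most among the nuclear members named by the rule. Their differences by clone size in CD8 T cells were -0.52, -0.26, -0.31 and -0.28, from a comparison that shares the CD8 T cells. Cox7a2l stood at 223, 223, 191, 243, 226 and 238 CPM in γδ and at 305, 393, 324, 374, 409.8 and 367 CPM in CD8 T cells. The groups did not overlap (-0.69 ± 0.06, edgeR adjusted p = 1.75e-09). Ndufa6, of complex I, stood at 198, 206, 201, 200.0, 214 and 261 CPM against 313, 313, 343, 309.7, 369 and 406. Its highest γδ sum lay below its lowest CD8 sum (-0.68 ± 0.05, edgeR adjusted p = 2.95e-10). Uqcrh (-0.57), Atp5g2 (-0.56) and Ndufaf4 (-0.54), an assembly factor, were lower without overlap.

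The 3 genes for subunit c of ATP synthase went apart. Atp5g2 was lower in γδ cells, Atp5g3 was higher (0.22 ± 0.05, edgeR adjusted p = 0.00183), and Atp5g1 did not pass (0.08 ± 0.05, edgeR adjusted p = 0.224). Complex V had 8 of 17 subunits lower and 2 higher, and complex I had 4 of 36 lower and 7 higher. Of the complex I assembly factors 3 of 8 were lower, Ndufaf4 and, named here after their values were seen, the low-level Ndufaf5 (-0.86) and Ndufaf7 (-0.75). Sdhb, the iron-sulfur subunit of complex II, was the 1 of 4 subunits of that complex to be called (-0.33 ± 0.07, edgeR adjusted p = 0.000644).

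Among the mitochondrially encoded genes 3 of 13 were called, 1 higher and 2 lower, a share under that of all genes (25.8% higher and 25.6% lower), and with unscaled totals 8 were, 1 of them lower. With the cells that share receptors with another pool left out, 6 were called, 5 of them lower. mt-Nd5, the proton-pumping subunit at the end of the membrane arm of complex I, stood at 276, 285, 265, 304, 256 and 349 CPM in γδ and at 383, 428, 368, 439, 402 and 438 CPM in CD8 T cells. The groups did not overlap (-0.50 ± 0.05, edgeR adjusted p = 2.31e-08). mt-Nd6 went the other way with 109.8, 72.7, 91.4, 98.2, 80.3 and 82.6 CPM against 84.7, 61.9, 61.6, 64.9, 58.4 and 62.0. It was higher in 6 of 6 pools, with WT-1 the highest in both lineages (0.45 ± 0.07, edgeR adjusted p = 7.47e-06). mt-Co1 was lower (-0.16 ± 0.04, edgeR adjusted p = 0.00425), but with unscaled totals its sign turned (0.03).

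**Figure D3:**
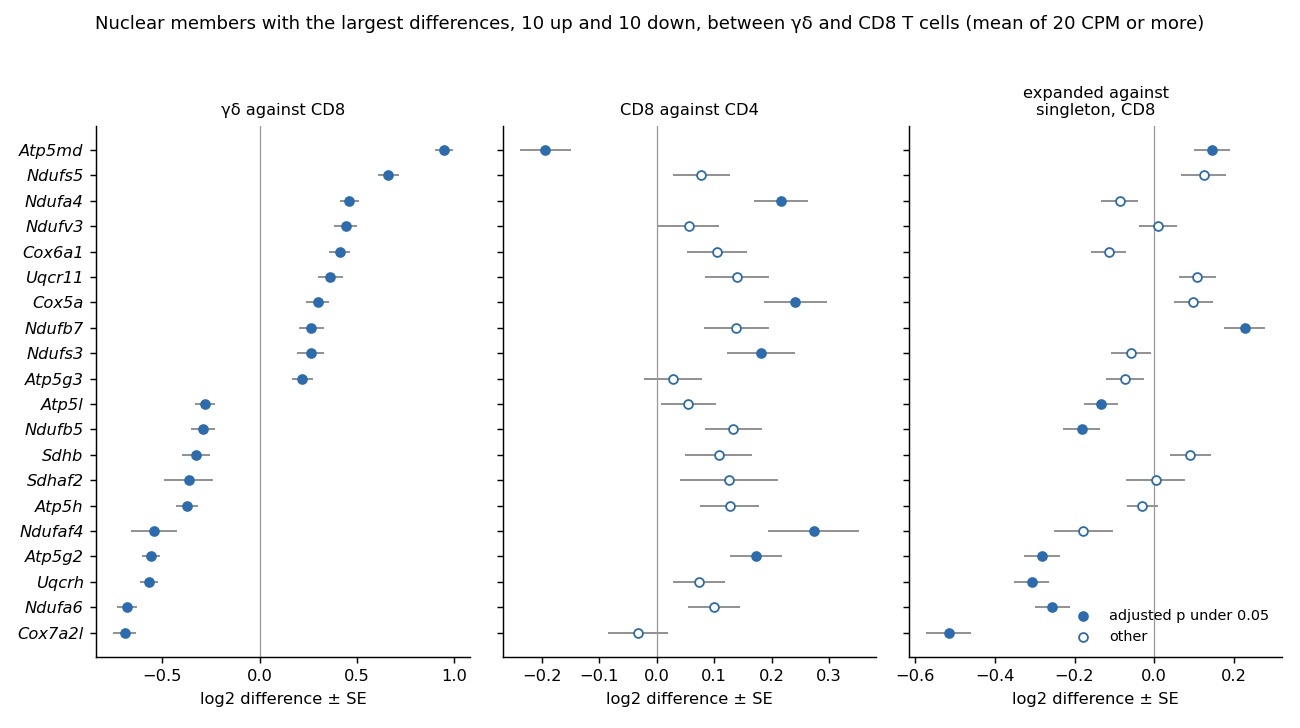
Log2 differences with standard errors (x axes) of 20 nuclear members (y axis) in γδ against CD8 T cells, and of the same genes in CD8 against CD4 and in expanded against singleton CD8 T cells. Filled points passed an adjusted p of 0.05. Atp5md lies at 0.95, -0.19 and 0.15 in the 3 panels and Cox7a2l at -0.69, -0.03 and -0.52.

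Other metabolic genes also differed between γδ and CD8 T cells, where 25.8% of all genes were higher and 25.6% lower. Of 20 glycolysis genes 11 were higher and 2 lower (median 0.41), with Hk2, which phosphorylates glucose, at 4.51 ± 0.17, and Slc16a3, which exports lactate, at 3.68 ± 0.17. The selenium enzyme Gpx1 was at 2.26 and Rexo2 at 1.44. Cytosolic ribosomal protein genes had 83 of 94 lower (median -0.78) and took 20.9% of γδ UMIs against 32.2% of CD8 UMIs. Dissociation and heat shock genes had 15 of 22 higher, with Atf3 at 4.37. The summed B cell and plasma cell genes lay at 39.2 to 79.1 CPM in γδ and at 95.4 to 136 CPM in CD8 T cells, and the 7 NK cell genes at 1.87 to 68.2 and 19.9 to 74.1 CPM. The part of these lists in the members' differences was not tested.

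Between CD8 and CD4 T cells the nuclear members differed by small steps, mostly higher in CD8. Of 89 nuclear members 31 were higher and 2 lower (14.2% of all genes were higher and 14.8% lower), and 83 of 89 differences were positive, with a median of 0.14 against 0.02 for all genes. Complex I had 14 of 36 subunits higher, complex V 7 of 17, complex IV 5 of 12 tested, complex III 2 of 8 and complex II 1 of 4. With unscaled totals 10 nuclear members were called, 2 of them lower, and 20 were called without PS-5X and 21 without WT-1. Both lineages held naive clusters, whose nuclear share was 1.568% against 1.77% in other CD8 clusters and 1.488% against 1.712% in other CD4 clusters. The part of naive cells in the differences between CD8 and CD4 T cells was not tested.

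Cox8a, a small subunit of complex IV, was the member most above its CD4 level. It stood at 659, 711, 742, 683, 698 and 757 CPM in CD8 and at 469.8, 551, 639, 524, 531 and 620.4 CPM in CD4 T cells. Every CD8 sum was above every CD4 sum (0.35 ± 0.05, edgeR adjusted p = 2.97e-05). Ndufs7, an iron-sulfur subunit of complex I, was higher by 0.29 ± 0.05 and Atp5g1, of complex V, by 0.27 ± 0.05, both without overlap. Cox5a, of complex IV, was higher by 0.24 in 6 of 6 pools with overlapping groups. The 2 members that were lower in CD8 cells were Sdhaf1 (-0.50 ± 0.12, edgeR adjusted p = 0.00301), an assembly factor of complex II, and Atp5md (-0.19 ± 0.05, edgeR adjusted p = 0.00206).

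Among the mitochondrially encoded genes mt-Nd1 was higher in CD8 cells (0.15 ± 0.05, edgeR adjusted p = 0.0138) and mt-Cytb lower (-0.14 ± 0.04, edgeR adjusted p = 0.0146), each in 6 of 6 pools with overlapping groups. With unscaled totals, or without WT-2 or PS19, 1 gene was called and it was lower. The other 11 did not pass, and their differences lay between -0.05 and 0.13. Lists of related genes were again counted beside the members, against 14.2% of all genes higher and 14.8% lower. In CD8 cells 19 of 78 mitochondrial ribosomal protein genes and 8 of 23 import genes were higher, with none lower. Of the assembly factors 6 of 37 were higher, near the share of all genes, and none was lower. Of the cytosolic ribosomal protein genes 71 of 94 were higher. Cyc1, the cytochrome c1 of complex III, and Cycs, the cytochrome c that carries electrons on to complex IV, were higher by 0.18 and 0.19. Dissociation and heat shock genes had 4 of 22 higher and 11 lower, and the summed B cell and plasma cell genes lay at 95.4 to 136 CPM in CD8 and at 150 to 249 CPM in CD4 T cells. Their part in the members' differences was not tested.

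**Figure D4:**
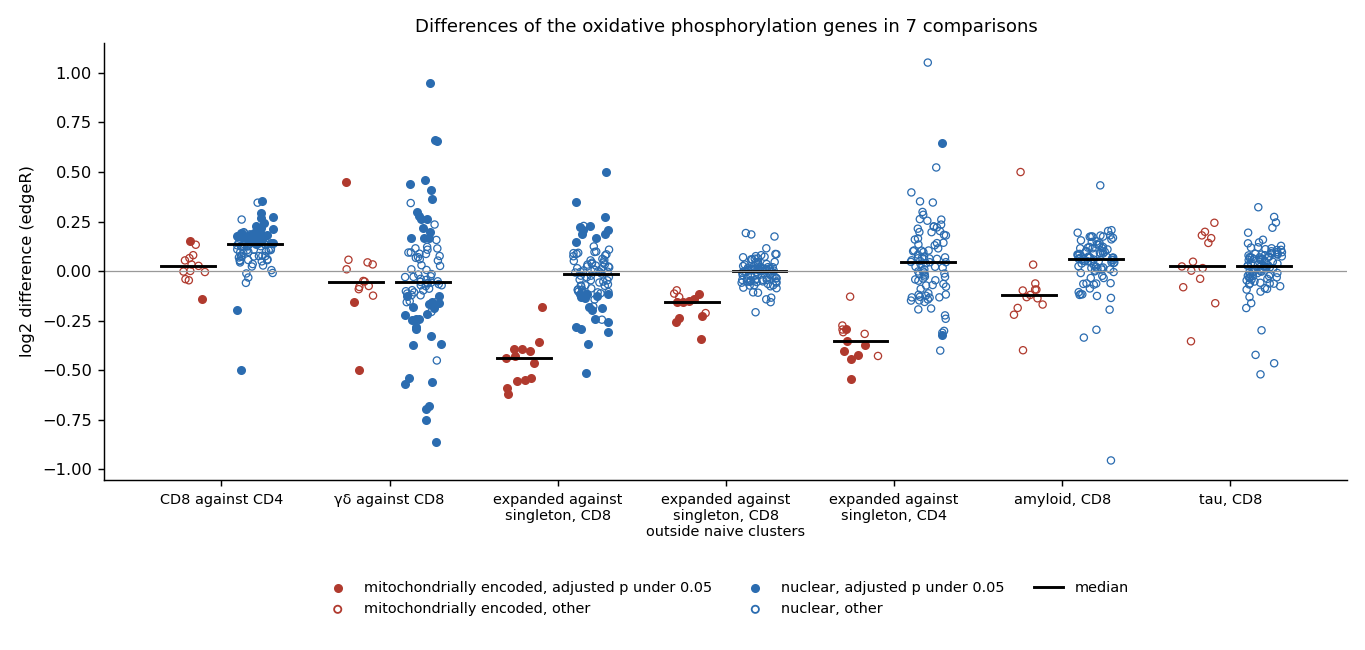
Log2 difference (y axis) of each tested member in 7 comparisons (x axis), with the mitochondrially encoded members in red, the nuclear members in blue, filled points past an adjusted p of 0.05 and bars at the medians. The mitochondrially encoded median is -0.44 for clone size in CD8 T cells and 0.03 for CD8 against CD4.

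Across pools the summed shares were close to each other. The mitochondrially encoded members made up 1.28% ± 0.10 of UMIs in CD8, 1.34% ± 0.09 in CD4 and 1.40% ± 0.13 in γδ T cells (mean ± SD, n = 6 pools). The nuclear members made up 1.70% ± 0.05, 1.63% ± 0.07 and 1.85% ± 0.09. The mitochondrially encoded shares of the 3 lineages overlapped, and CD8 was below CD4 in 6 of 6 pools, but among UMIs outside the cytosolic ribosomal protein genes it was so in only 3 of 6. The nuclear share of CD8 was above that of CD4 in 6 of 6 pools on both totals. The nuclear share of γδ was above that of CD8 in 6 of 6 pools, but outside the ribosomal protein genes the order turned, with 2.342% in γδ and 2.504% in CD8 and γδ lower in 6 of 6 pools. Per gene, the coefficient of variation over pools in CD8 cells had a median of 10.9% for mitochondrially encoded members (5.4% to 52.6%) and of 6.8% for nuclear members (3.6% to 19.5%). The sums of the separate sequencing run did not overlap the others in CD8 cells for 5 of 13 mitochondrially encoded members, mt-Atp6, mt-Co1, mt-Co2 and mt-Co3 being lower there and mt-Nd1 higher, and for 9 of 89 nuclear members. Over all genes 19.8% did not overlap, so the nuclear count was below the background and the mitochondrially encoded count above it. In CD4 T cells 4 of 13 mitochondrially encoded and 7 of 89 nuclear members did not overlap (15.6% of all genes). In γδ T cells 8 of 13 and 8 of 89 did not (15.1% of all genes).

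**Figure D5:**
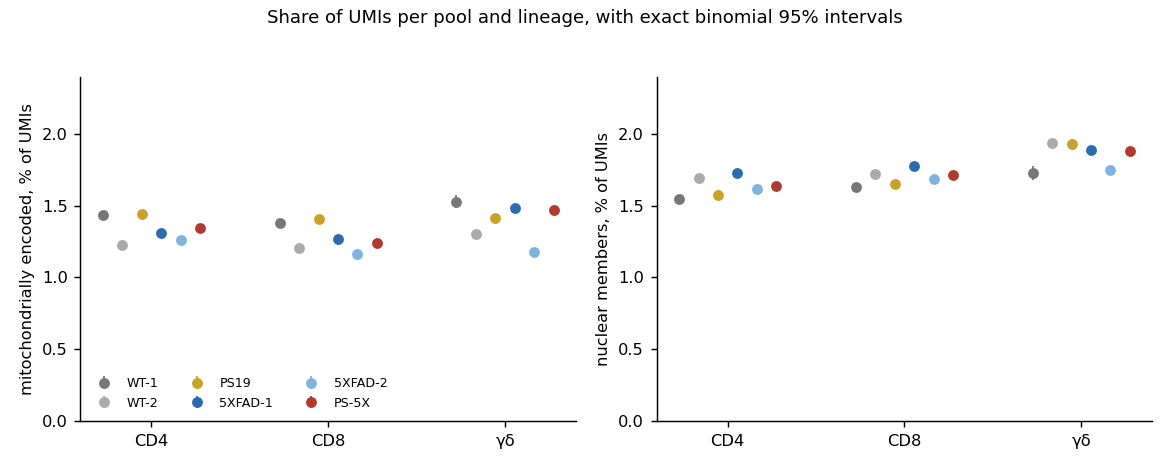
Percent of UMIs (y axes, from 0) from mitochondrially encoded and nuclear members in each pool and lineage (x axes), with exact binomial 95% intervals, most of them smaller than the points and covering counting error only. The γδ points of the nuclear panel lie between 1.73% and 1.94%.

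The 3 pools of mice that carry 5XFAD, alone or with PS19, were compared with those without in a fit that also holds tau. In CD8 T cells no member was called by edgeR (0% of 11536 genes were) or by DESeq2, which called 69 genes in all. With the sequencing run as a replicate block, 177 genes and no member were called. At an unadjusted p of 0.05, no mitochondrially encoded member was higher and 2 were lower, and 3 nuclear members were higher and 1 lower, against 5.50% of all genes higher and 4.60% lower. Of all genes 5618 of 11536 were positive, with a median of -0.01. The mitochondrially encoded median was -0.12 with 11 of 13 negative, and the nuclear median was 0.06 with 69 of 91 positive. The replicates went apart, since the nuclear differences were mostly positive for 5XFAD-1 against WT-1 and mostly negative for 5XFAD-2 against WT-2. Naive clusters made up 16.6%, 31.3% and 23.3% of the CD8 T cells of the amyloid pools and 31.0%, 36.0% and 45.8% of those of WT-1, WT-2 and PS19, and the part of this share in those medians was not tested. The summed NK cell genes were at 19.9 to 40.0 CPM in the amyloid pools and at 40.7 to 74.1 CPM in the others, and their part was not tested either.

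Ndufaf3, an assembly factor of complex I, had the smallest p-value of the members. It stood at 32.6, 29.8 and 31.5 CPM in 5XFAD-1, 5XFAD-2 and PS-5X and at 22.4, 22.7 and 24.3 CPM in WT-1, WT-2 and PS19. The groups did not overlap, but the difference did not pass (0.43 ± 0.09, edgeR adjusted p = 0.197). mt-Nd3 stood at 103, 99.2 and 58.9 CPM in the amyloid pools and at 104, 114 and 114 in the others. PS-5X was far below the other 5 pools (-0.40 ± 0.15, edgeR adjusted p = 0.445).

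In CD4 T cells amyloid gave no member (edgeR called 0.00993% of genes), and at an unadjusted p of 0.05 there were 2 nuclear members lower and none among the mitochondrially encoded (3.18% of all genes were higher and 2.70% lower). Tau, carried by the pools PS19 and PS-5X, gave no member in CD8 or in CD4 T cells (0% of genes in both). At an unadjusted p of 0.05, 2 mitochondrially encoded members were higher in each and 1, mt-Nd3, was lower in CD4 T cells, and 2 nuclear members were higher and 3 lower in CD8 and 3 lower in CD4 T cells. Of all genes 3.13% were higher and 3.24% lower at that p in CD8, and 2.62% and 2.27% in CD4 T cells. DESeq2 called 1 nuclear member lower for tau in CD4 T cells and none in the other 3 fits. Atp5k, a complex V subunit, stood in CD8 T cells at 132 and 92.7 CPM in PS19 and PS-5X and at 164, 162, 157 and 129 CPM in WT-1, WT-2, 5XFAD-1 and 5XFAD-2. PS-5X was the lowest of the 6 (-0.46 ± 0.11, edgeR adjusted p = 0.578).

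The nuclear members Cox6a2, Cox6b2 and Cox7a1 had too few counts to be tested between lineages or by clone size. Cox6b2 and Cox7a1 were tested for amyloid and tau in CD8 T cells, with means of 0.991 and 0.633 CPM, and were not called. Cox6a2, the striated muscle form of a complex IV subunit, had 1380 UMIs in cells left unnamed and 37 in CD8 T cells.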

How the data were processed

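RNA of sorted brain T cells was read as 10x 5' single-cell libraries of 6 pools with paired receptor libraries. The authors deposited raw UMI counts per gene and barcode, joined over pools and made by Cell Ranger 6.0.1, as the matrix header states. GRCm38 and mm10 are the builds named in the submitters' processing notes. Whether reads were thinned to equal depth is not given in the sources used here. Of 18374 barcodes, those with under 500 genes, over 10% mitochondrially encoded UMIs (104) or the highest doublet scores of scrublet (589) were removed. Cells were clustered in scanpy 1.11.5 (2000 variable genes without the members, 30 components, 15 neighbours, Leiden resolution 1 with leidenalg 0.10.2) and named where lineage markers were detected in at least 50% of cells. The sums of UMIs for each class of a pool went into edgeR 4.0.16 under R 4.3.3 (quasi-likelihood test, TMM, filterByExpr, Benjamini-Hochberg over all genes, 0.05), and DESeq2 1.42.0 was an alternative. A standard error is the log2 difference divided by the square root of edgeR's F statistic. T cell receptor genes were left out of counts of called genes. CD8 sums held 3730395 to 25673310 UMIs, CD4 sums 1103536 to 5636556 and γδ sums 283277 to 1607484. Intervals cover counting error only.

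The genes named are all mitochondrially encoded members, up to 10 nuclear members in each direction that were called, changed alike in every pool and averaged 20 CPM or more, a fixed nuclear set, and the genes with the smallest p-values of each related list. Counts over members include 1 gene that is not reported here by name. Members and lists were chosen with earlier results of these data known, and naive clusters were set by naive markers in at least 50% of their cells. The design holds pools of several mice. In the lineage and clone size fits, with the pool as a block, p-values rest on the spread of the differences within pools. In the amyloid and tau fits they rest on the spread between pools. Replicate 2 of WT and 5XFAD marks the separate sequencing run per the labels, and the differences of replicate 1 from replicate 2 in WT and 5XFAD correlated at 0.27 over 11401 genes in CD8 and at 0.201 over 9877 genes in CD4 T cells. The test recovered 100% of 200 genes simulated at a log2 change of 1 for clone size in CD8, with 11 false calls among 10894 genes. The members' own differences there were smaller (-0.62 to 0.50), and recovery at such sizes was not tested.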

Additional observations from a re-analysis of the deposited data

Results flagged for a closer look

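In all, 131 groups of 6 values, within-pool log2 differences or shares of UMIs per pool, were examined for 1 pool far from the other 5. Of these 16 stood apart, all of them log2 differences, where for a single group of independent values chance alone gives about 1 in 20. The groups share cells between comparisons and include genes chosen by their results, so the count cannot be set against that rate. Many fell in WT-1, the smallest pool. By clone size in CD8 T cells, WT-1 stood at -0.56 for Atp5mpl (other pools -0.37 to -0.30) and at -1.34 for mt-Atp8 (-0.62 to -0.29), and 5XFAD-1 at -0.30 for mt-Co3 (-0.52 to -0.44). Outside the naive clusters, WT-1 stood at -1.25 for mt-Atp8 (-0.47 to -0.03) and at -0.26 for mt-Co1 (-0.13 to -0.06). WT-2 stood there at -0.25 for mt-Co3 (-0.15 to -0.11) and at -0.55 for mt-Nd6 (-0.09 to 0.08).

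By clone size in CD4 T cells, WT-1, with 9 expanded cells, stood at -1.19 for mt-Cytb (other pools -0.58 to -0.29) and at -1.26 for mt-Nd5 (-0.57 to -0.21). 5XFAD-2 was the 1 pool with a higher value in expanded cells for mt-Co2, at 0.14 (-0.40 to -0.25). Between CD8 and CD4 T cells, Atp5g1 was at 0.41 in 5XFAD-1 (0.22 to 0.26), Ndufa5 at 0.37 in WT-1 (0.17 to 0.23), Ndufs8 at 0.046 in PS19 (0.23 to 0.33) and mt-Nd5 at -0.003 in PS-5X (0.07 to 0.11). Between γδ and CD8 T cells, Cox6a1 was at 0.20 in WT-1 (0.38 to 0.48) and Sdhaf2 at -1.05 in WT-2 (-0.42 to -0.13).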

How the results depend on the processing

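For the genes named, 6612 values under the alternatives kept direction and side of the threshold, 164 lost the call, 96 gained one and 9 turned sign. All 9 turned with unscaled totals, chosen after seeing the data: between γδ and CD8 T cells mt-Nd1 (0.13), mt-Co1 (0.027), mt-Co2 (0.11), mt-Co3 (0.14), Cox4i1 (0.001) and Atp5b (0.027), and by clone size in CD8 T cells Ndufab1 (0.14), Atp5a1 (0.027) and Atp5b (0.037). Unscaled totals also moved the calls to 1 mitochondrially encoded and 10 nuclear members for CD8 against CD4, 8 mitochondrially encoded for γδ against CD8, 47 nuclear by clone size in CD8, 1 nuclear outside the naive clusters, and 1 and 9 in CD4. Without the filter on low counts, calls were 5 mitochondrially encoded for γδ, 1 nuclear outside the naive clusters, 2 and 1 for amyloid in CD8, 1 mitochondrially encoded for amyloid in CD4, and 1 nuclear for tau in each lineage. DESeq2 called 1 nuclear member by clone size in CD4 and 1 for tau in CD4. With doublets kept, calls were 1 mitochondrially encoded for CD8 against CD4 and 1 nuclear outside the naive clusters. Classes from each cell's own UMIs gave 5 mitochondrially encoded for CD8 against CD4, and 11 and 1 in CD4 clones. With no limit on the mitochondrial share, 4 nuclear members were called in CD4 clones. Clones of 5 or more cells gave 1 and 0 in CD4, without WT-1, which had none, and leaving out WT-1 cells with receptors of other pools gave 1 and 1. Leaving out such cells in every pool, also chosen after seeing the data, gave 6 mitochondrially encoded calls for γδ against CD8, 16 nuclear by clone size in CD8, and 0 and 0 in CD4, and 293 genes in all outside the naive clusters, 69 for the difference of clone effects and 25 for amyloid in CD8. Naive clusters by their leading genes, also chosen after seeing the data, gave 20 nuclear calls. The cause of these changes was not tested.

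Leaving out 1 pool at a time gave 1 to 3 mitochondrially encoded and 20 to 27 nuclear calls for CD8 against CD4, 3 to 4 and 36 to 38 for γδ against CD8, 12 to 13 and 17 to 23 by clone size in CD8, 8 to 10 and 0 to 1 outside the naive clusters, 4 to 11 and 0 to 3 in CD4 clones, and 0 in the genotype comparisons. With the sequencing run as a replicate block, 0 members were called in the 4 genotype comparisons. Of all genes, amyloid in CD8 then had 177 (69 by DESeq2, 530 without the filter, 0 in the fit reported), amyloid in CD4 7 (4, 159 and 1), tau in CD8 34 (23, 211 and 0) and tau in CD4 22 (8, 95 and 0). Outside the naive clusters 620 genes became 334 by DESeq2 and 2161 with naive clusters by leading genes, and the difference of clone effects had 331 in place of 133 without the filter, 40 with classes from UMIs, 71 at 5 or more cells and 79 without the WT-1 cells that share receptors. The genotype fits in CD4 and tau in CD8 had 0 to 8 genes under the other choices of cells. The expanded CD4 sum of WT-1, with 67926 UMIs, limits the CD4 comparison.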
